A study of Mus musculus with 10 samples.

Results

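Ftl1 and Fth1 encode the light and the heavy chain of cytosolic ferritin. Reads were taken for them when the deposited table named the gene as Ftl1 or Fth1, classed the aligned transcript as mRNA and gave the tail estimate the quality tag PASS. Kept reads are such reads of all genes, leaving out mitochondrial genes and transcripts classed as pseudogenes. Ftl1 and Fth1 are 2 of the 13272 genes with kept reads, and they held 8059 of the 2041970 kept reads (0.395%), 5420 of Ftl1 and 2639 of Fth1. The data are direct RNA nanopore reads of P19 cells, a mouse embryonal carcinoma line that is pluripotent, in which each read is 1 native RNA molecule with its own poly(A) tail length. Undifferentiated cells had been transfected with 1 siRNA against Larp1 (siLarp1) or with a pool of scrambled siRNAs (siCtl) and collected at 24 h (3 siCtl and 3 siLarp1 libraries) or at 48 h (2 and 2 libraries), the 48 h cells after a second transfection at 24 h. The deposited table names the libraries 19, 21 and 22 at 24 h and 24 and 25 at 48 h, and which labelled replicate each one is was not used. The comparison asks how the tails and the levels of mRNAs change when Larp1 is lowered.

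Ferritin is a hollow shell of heavy and light chains that stores iron. The heavy chain oxidises iron on its way into the shell, and the light chain favours the formation of the iron core. Both mRNAs carry an iron-responsive element in the 5′ UTR, a small hairpin to which iron regulatory proteins bind when iron is scarce, which blocks translation. LARP1 binds the cap and the 5′-terminal oligopyrimidine (TOP) motif of mRNAs for ribosomal proteins and translation factors, and also poly(A) and its binding protein. Short tails generally precede decay of an mRNA.

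The transcript with most reads was ENSMUST00000094434.12 for Ftl1 (4 exons, 968 nt, chr7:45457944-45459884, minus strand, build GRCm38), with 5308 reads or 97.9% of the gene's reads. For Fth1 it was ENSMUST00000025563.7 (4 exons, 929 nt, chr19:9982646-9985098, plus strand), with 2497 reads or 94.6%. Sequences are from the GENCODE M21 transcripts, whose coordinates match those in the deposited table. The iron-responsive elements are shown because they are the known control element of both mRNAs, with the 6-base loop in capitals. They lie in the 5′ UTR, at chr7:45459780-45459809 (minus strand) and chr19:9982730-9982759 (plus strand).
Ftl1 iron-responsive element: gtgtcttgcttcaaCAGTGTttgaacggaa
Fth1 iron-responsive element: gtttcctgcttcaaCAGTGCttgaacggaa
The windows shared 27 of 30 bases. They differed as G3T, T6C and T20C, counted from 1 at the 5′ end with the Ftl1 base given before the position. The letters CNNNNNCAGTG, read on the transcript strand, occurred in the initial 150 bases of 128 of 2591 transcripts (4.94%), and CAGTG, which that motif includes, in 430 (16.6%). The windows that follow start at a TATA box, shown in capitals because the reads of both genes began at a fixed distance from it. They lie at chr7:45459840-45459869 (minus strand) and chr19:9982672-9982701 (plus strand).
Ftl1 TATA window: TATAAaaggagcgctccttgcccgggactt
Fth1 TATA window: TATAAgtgcggcccgctgtcccctcctgcg
TATAA was found in the initial 150 bases of 86 of the 2591 transcripts (3.32%). The 3′ ends are shown with the poly(A) signal in capitals, since the measured tails start just after it. They lie at chr7:45457944-45457969 (minus strand) and chr19:9985069-9985098 (plus strand).
Ftl1 3′ end: taaaAATAAAgctttttgagacagca
Fth1 3′ end: ttcaAATAAAgaattttggtacccagcttc
AATAAA was found in the last 50 bases of 1718 of the 2591 transcripts (66.3%).

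Reads of both genes began just upstream of the iron-responsive element. The commonest first aligned base was base 58 of the Ftl1 transcript (2276 of 5308 reads) and base 70 of the Fth1 transcript (787 of 2497 reads), and 75.4% and 78.1% of reads began within 3 bases of it. These bases lie 42 and 43 bases after the start of the TATA box, and 32 and 29 bases before the loop of the iron-responsive element. The annotated 5′ UTRs of 253 and 224 nt therefore begin upstream of the sites where reads began. At the other end, the commonest last aligned base was the annotated end of Ftl1 (base 968, 75.8% of reads) and base 924 of Fth1 (63.8%), 16 and 15 bases after the poly(A) signal.

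**Figure D1:**
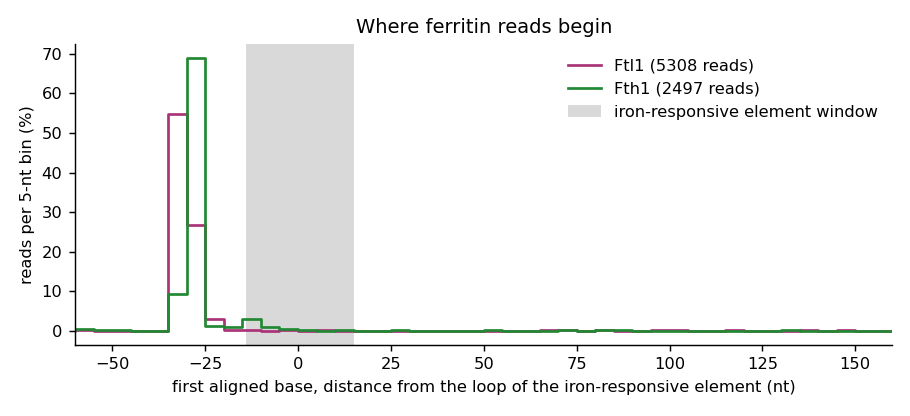
First aligned base of the reads of each gene's main transcript, as percent of reads per 5-nt bin (y axis) against the distance from the loop of the iron-responsive element in nt (x axis), with the element's window in grey. Both lines peak just upstream of the window, with 75.4% of Ftl1 and 78.1% of Fth1 reads within 3 bases of the commonest start.

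Most reads were therefore long enough to hold the whole iron-responsive element, namely 4552 of 5308 for Ftl1 (85.8%, from 73.5% to 90.7% over libraries) and 2122 of 2497 for Fth1 (85.0%, from 79.4% to 89.6%). Reads that held it and reads that did not were not shown to differ in tail length. The Ftl1 medians averaged 105.0 and 106.3 nt, a difference of −1.34 ± 6.68 nt (SD, n = 10 libraries, exact sign-flip permutation p = 0.521). For Fth1 the difference was 4.39 ± 10.9 nt (n = 10, exact p = 0.238). The share of Fth1 reads that held the element was 84.7% ± 0.622 in siCtl and 88.6% ± 1.39 in siLarp1 at 24 h (n = 3 each, exact permutation p = 0.1), but 84.4% and 81.5% at 48 h (exact p = 0.667), and for Ftl1 it was 88.1% and 88.3% at 24 h and 78.2% and 80% at 48 h.

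Libraries held from 112713 to 423365 kept reads. At 24 h every siLarp1 library was shallower (119855 to 157047) than every siCtl library (289717 to 423365). At 24 h siCtl and siLarp1 had been sequenced in separate pools, so that pool and siRNA cannot be told apart there, while the 4 libraries at 48 h shared 1 pool. Larp1 had 22, 29 and 36 reads in siCtl and 4, 6 and 3 in siLarp1 at 24 h, and 19 and 22 against 3 and 3 at 48 h. Relative to all kept reads this was 0.397 times siCtl at 24 h and 0.149 times at 48 h (limma voom over both time points, log2 −1.84, SE 0.342, adjusted p = 0.00241). All 8 pluripotency markers looked for, Pou5f1 and Sox2 among them, had reads (3257 to 4356 summed RPM, reads scaled to the same library total, in all libraries). Pou5f1 alone had 2278 to 3028 RPM, while Dppa5a had 8 reads in 5 of 10 libraries. Of 4 endoderm markers 1 had reads (0 to 6.37 summed RPM) and of 3 fibroblast markers 3 (0 to 14.5). Tubb3, a tubulin of neurons, had reads in 10 of 10 libraries (26.6 to 81.3 RPM).

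Ferritin mRNAs with <30-nt long tails were rare. Over all libraries 24 Ftl1 reads and 11 Fth1 reads were this short. Averaged over the 10 libraries, the share was 0.545% for Ftl1 and 0.446% for Fth1, against 2.82% for reads of 96 TOP genes, 2.91% for all other genes and 3.12% for other genes with transcripts of 700 to 1200 nt, a length like that of the ferritin mRNAs. Each ferritin gene was below each of these sets in 10 of 10 libraries (exact sign-flip permutation test, p = 0.00195, the smallest it can give; Benjamini-Hochberg adjusted over 24 such tests, 0.00293). Among the 278 genes with at least 1000 reads, the siCtl shares of Fth1 (0.203%) and Ftl1 (0.255%) ranked 4th and 5th lowest, where the median gene had 1.86% and the range was 0.114% to 8.36%. Intervals and limits for counts of 0 given with these shares cover counting error only.

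Their median tails were not at an extreme. The median tail of Ftl1 averaged 104.8 nt over libraries, 10.4 nt longer than that of TOP reads (longer in 10 of 10 libraries, exact p = 0.00195, adjusted 0.00293) and 5.21 nt longer than other genes of its length (exact p = 0.00195, adjusted 0.00293). Against all other genes the Ftl1 difference was −0.358 nt (exact p = 0.727). Fth1 tails differed from those of all other genes by −8.28 nt (shorter in 10 of 10 libraries, exact p = 0.00195, adjusted 0.00293), while the differences from TOP reads (2.51 nt, exact p = 0.0742) and from other genes of its length (−2.71 nt, exact p = 0.043, adjusted 0.0573) did not pass the threshold. In siCtl, Ftl1 with 105.6 nt ranked 63rd longest and Fth1 with 96.4 nt ranked 178th of the 278 genes.

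**Figure D2:**
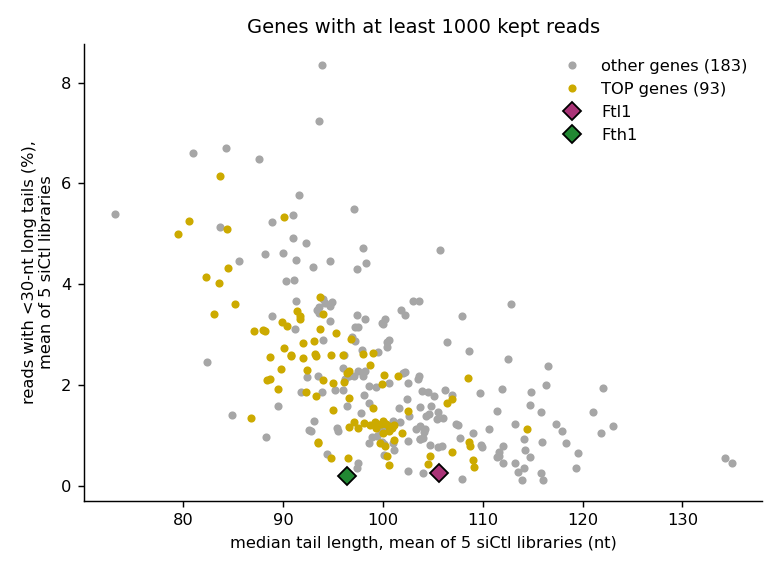
Reads with <30-nt long tails (y axis, percent) against median tail length (x axis, nt; the axis does not start at 0) for the 278 genes with at least 1000 reads, each point the mean of the 5 siCtl libraries, with 93 TOP genes and 183 other genes. Ftl1 (105.6 nt, 0.255%) and Fth1 (96.4 nt, 0.203%) lie at the lower edge of the cloud, Ftl1 63rd and Fth1 178th in order of tail length from the longest.

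At 24 h the share of Ftl1 reads with <30-nt long tails was higher in siLarp1 than in siCtl, without passing the test across all genes. It was 0.130% (1 of 771 reads), 0.207% (2 of 967) and 0.180% (2 of 1113) in siCtl libraries 19, 21 and 22. In the siLarp1 libraries it was 0.568% (2 of 352), 0.521% (2 of 384) and 1.46% (7 of 479, 95% Wilson interval 0.710% to 2.99%). All siLarp1 libraries were above all siCtl libraries, with library 22 highest. The upper Wilson limits of the siCtl libraries (0.731%, 0.751% and 0.653%) lie above the shares of siLarp1 libraries 19 and 21. The means were 0.172% ± 0.0391 and 0.850% ± 0.530 (SD, n = 3 each), a difference of 0.678 percentage points (exact permutation p = 0.1, the smallest that 3 against 3 libraries can give). Such a pattern, every siLarp1 library higher, held for 6.22% of the 1945 genes with enough reads. In the quasi-binomial model over all genes, with dispersions moderated by limma, the estimated difference in log2 odds was 2.38 (SE 0.758, adjusted p = 0.101). Leaving out siLarp1 library 22 lowered the difference to 0.372 points, and a limit of 25 nt for short tails lowered it to 0.226.

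At 48 h, where all libraries shared 1 pool, Ftl1 groups overlapped. The siCtl libraries had 0.760% (2 of 263) and 0 of 379, which allows a share of up to 0.792%. The siLarp1 libraries had 1.32% (5 of 379) and 0.300% (1 of 333). The means were 0.380% ± 0.538 and 0.810% ± 0.721 (n = 2 each, exact permutation p = 0.667, where the smallest possible is 0.333; limma-moderated adjusted p = 0.567). Over both time points the Ftl1 difference was 0.554 points (exact permutation within time points, p = 0.133) and the log2 odds estimate 2.12 (SE 0.674, limma-moderated adjusted p = 0.136). The difference was 0.299 points without siLarp1 library 24, 0.364 without siCtl library 25 and 0.150 with a limit of 25 nt for short tails. Between libraries of the same number, the Ftl1 share was higher in siLarp1 in 5 of 5 pairs, as in 3.26% of 2610 genes, although the limit for siCtl library 25 lies above the share in siLarp1 library 25. With the library number as a block in the same model this adjusted p was 0.0429, which passes. That fit passed 529 of 2539 genes against 35 without the block, and 0 genes, Ftl1 with 0.937, when its dispersion was held at 1 or more.

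Fth1 reads with <30-nt long tails were too few for a direction at 24 h. They numbered 1 of 353, 1 of 445 and 3 of 594 in siCtl (0.283%, 0.225% and 0.505%). The siLarp1 libraries had 0 of 153, 0 of 172 and 1 of 244 (0.410%), and the counts of 0 allow shares of up to 1.961% and 1.744%. The groups overlapped in what these depths could show, with means of 0.338% ± 0.148 and 0.137% ± 0.237 (n = 3 each, exact permutation p = 0.3; limma-moderated adjusted p = 0.823). At 48 h no Fth1 read was this short in siCtl (0 of 150 and 0 of 177, which allow up to 2% and 1.69%), while siLarp1 had 2 of 206 (0.971%) and 3 of 145 (2.07%). The limits of the single siCtl libraries lie above the share of siLarp1 library 24. Pooled within groups, which leaves out the spread between libraries, siCtl had 0 of 327 (up to 0.917%) and siLarp1 5 of 351 (1.42%). The difference did not pass (exact permutation p = 0.333, limma-moderated p = 0.0144, adjusted p = 0.248). Of 843 genes, 27% had higher shares in both siLarp1 libraries at 48 h. Over both time points the Fth1 difference was 0.659 points (exact p = 0.3, adjusted p = 0.673). It was 0.385 points without siLarp1 library 25 and 1.22 with all quality tags.

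In the model over all genes, 0 of 2 ferritin genes passed for <30-nt long tails in any of these comparisons, where 1.34% of 1867 genes passed at 24 h, 0.729% of 823 at 48 h and 1.38% of 2539 over both. The siLarp1 effect was not shown to differ between the time points for Ftl1 (adjusted p = 0.947) or Fth1 (adjusted p = 0.487), and this interaction passed in 0 of 2539 genes, with 235 at an unadjusted p under 0.05. In TOP reads the share was higher at 24 h, with means of 1.83% in siCtl and 3.04% in siLarp1, and at 48 h, with 2.55% and 4.24% (1.45 points, exact permutation within time points, p = 0.0167, the smallest it can give, adjusted over 6 tests 0.1). The siLarp1 effect on Ftl1 differed from that on TOP reads by −0.901 points (exact p = 0.05) and that on Fth1 by −0.795 points (exact p = 0.0667), and neither passed after adjustment over 24 such tests (0.343 for both). Against all other genes the effects differed by 0.177 points for Ftl1 (exact p = 0.65) and 0.283 for Fth1 (exact p = 0.833). These differences are in points, from siCtl shares that were much lower for the ferritin genes. As a ratio of siLarp1 to siCtl means, Ftl1 gave 4.94 at 24 h and 2.13 at 48 h, and TOP reads 1.67 and 1.66. The Ftl1 ratios rest on 5 and 2 short siCtl reads. Fth1 gave 0.405 at 24 h, and ratios were not compared by a test.

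**Figure D3:**
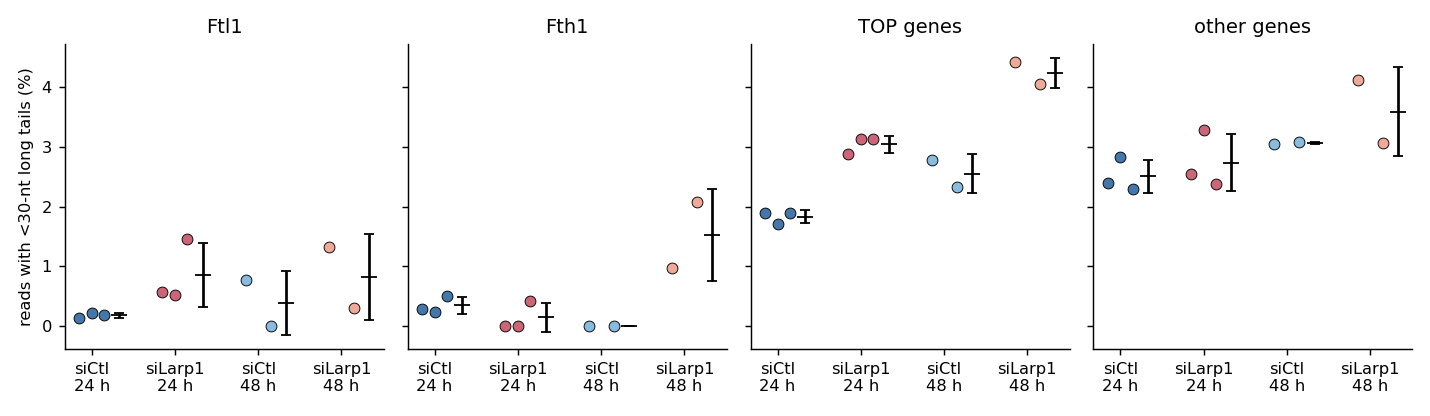
Percent of reads with <30-nt long tails (y axis) in each of the 10 libraries (points) by siRNA and time, with the mean and SD beside them (bars; n = 3 per group at 24 h and 2 at 48 h), for Ftl1, Fth1, 96 TOP genes and all other genes. Ftl1 and Fth1 stay at or below 2.07% in every library, under the TOP and other reads of the same library.

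Tails of the 60-nt class, from 30 to 90 nt, made up from 30.7% to 52.9% of ferritin reads, and siLarp1 did not shift them beyond the spread between libraries. For Ftl1 they were 32.0%, 30.7% and 35.2% of reads in siCtl and 33.5%, 37.8% and 32.8% in siLarp1 at 24 h. At 48 h they were 41.4% and 33.2% in siCtl and 40.6% and 34.5% in siLarp1. Both libraries numbered 24 were the high ones, and the groups overlapped at each time. For Fth1 they were 37.1%, 37.1% and 38.6% in siCtl and 35.3%, 39.0% and 34.4% in siLarp1 at 24 h. At 48 h they were 49.3% and 49.7% in siCtl and 52.9% and 42.8% in siLarp1, so Fth1 groups overlapped too and all 48 h libraries lay above all 24 h libraries. The limma-moderated adjusted p over both time points was 0.853 for Ftl1 and 0.948 for Fth1, and 0 of 2 passed at either time, against 0.308% of genes at 24 h, 0% at 48 h (77 of 843 at an unadjusted p under 0.05) and 0.345% over both.

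Median tail length gave the same picture. For Ftl1 the siCtl libraries had 106.8, 111.3 and 104.8 nt at 24 h, and the siLarp1 libraries 106.8, 101.6 and 107.4 nt. At 48 h the siCtl libraries had 97.9 and 107.3 nt, and the siLarp1 libraries 99.6 and 104.3 nt. The groups overlapped at both times, and the difference over both was −2.03 nt in limma's fit (95% interval −6.16 to 2.10, adjusted p = 0.905). For Fth1 the siCtl libraries had 99.9, 100.4 and 101.2 nt at 24 h, and the siLarp1 libraries 100.7, 102.2 and 101.6 nt. At 48 h the siCtl libraries had 90.4 and 90.3 nt, and the siLarp1 libraries 86.9 and 94.9 nt. The Fth1 groups overlapped as well, with a difference over both times of 0.638 nt in limma's fit (95% interval −4.78 to 6.05, adjusted p = 0.984). Of all genes 0% passed at 24 h (116 of 1907 at an unadjusted p under 0.05), 0% at 48 h (54 of 843) and 0.141% over both.

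**Figure D4:**
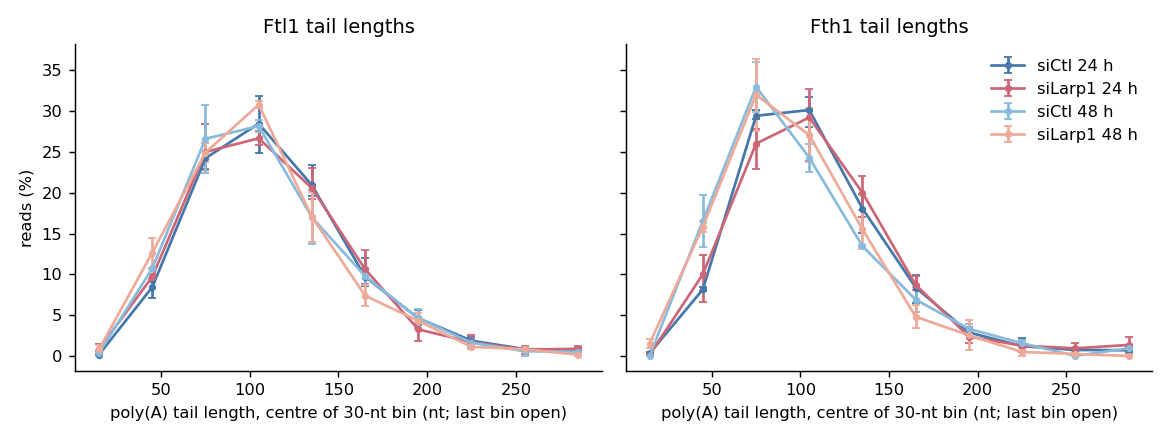
Distribution of tail lengths of Ftl1 (left) and Fth1 (right) as percent of reads (y axis) per 30-nt bin (x axis, bin centres in nt, the last bin open). Points are the mean of the libraries of a group, and bars run from the lowest to the highest library (n = 3 at 24 h, 2 at 48 h). Each gene's siCtl and siLarp1 lines run together at a given time, and the 48 h lines of Fth1 are higher at 30 to 60 nt (16.6% and 15.8% against 8.15% and 10.0% at 24 h).

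Both ends of the Ftl1 distribution lay a few nt lower in siLarp1, without passing after adjustment. The 10th percentile of Ftl1 tails averaged 62.5 ± 1.65 nt for siCtl and 59.1 ± 1.51 nt for siLarp1 at 24 h, then 58.6 ± 1.29 and 55.4 ± 2.17 nt at 48 h. The stratified difference was −3.29 nt (exact permutation p = 0.0167, the smallest it can give), and the Benjamini-Hochberg value over the 18 ferritin tests was 0.15. The 90th percentile of Ftl1 differed by −7.11 nt (exact p = 0.0333, adjusted 0.2). Tails over 150 nt overlapped between siRNAs at 24 h for both genes. At 48 h their share was lower in siLarp1 without overlap, with means of 17.1% in siCtl and 13.8% in siLarp1 for Ftl1. For Fth1 the means were 12.4% and 8.06% (n = 2 each, exact permutation p = 0.333 for each gene, the smallest possible). Over both times neither passed (adjusted over 18 tests 0.633 for both).

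Ftl1 was among the abundant mRNAs of these cells. By RPM its level was a little higher in every siLarp1 library than in the siCtl libraries of its time. Levels are RPM (reads scaled to 1e+06 kept reads per library), which count molecules and are not divided by length. From bulk RNA, a change in RNA per cell and one in the share of cells with that RNA cannot be told apart. In siCtl, Ftl1 ranked 93rd and Fth1 136th of 13272 genes on this scale. Ftl1 had 2661, 2809 and 2629 RPM in siCtl and 2937, 2871 and 3050.0 RPM in siLarp1 at 24 h. At 48 h it had 2333 and 2121 RPM in siCtl and 2339 and 2762 RPM in siLarp1. No siLarp1 library fell below a siCtl library of its time, by a narrow margin between the libraries numbered 24. The limma voom log2 difference at 48 h was 0.190. It was 0.143 with size factors from the median of gene ratios and 0.137 when scaled to reads outside the TOP list. Whether the libraries stay apart with these scalings was not tested. The means were 2700 ± 96.1 and 2953 ± 90.5 at 24 h (n = 3 each, exact permutation p = 0.1) and 2227 ± 150.2 and 2551 ± 299.6 at 48 h (n = 2 each, exact p = 0.333). Of all genes 4.69% were higher without overlap in this way at 24 h, 18.2% at 48 h and 1.48% (40 of 2698) at both. In limma voom the fold over both times was 1.11 (95% interval 1.03 to 1.20, log2 0.15, SE 0.0557), and the adjusted p was 0.670. The stratified exact permutation p was 0.0167, or 0.15 after adjustment over 18 tests.

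Fth1 level did not separate by siRNA. It had 1218, 1293 and 1403 RPM in siCtl and 1277, 1286 and 1554 RPM in siLarp1 at 24 h. At 48 h it had 1331 and 991 RPM in siCtl and 1271 and 1203 RPM in siLarp1. The groups overlapped at both times, and limma voom gave a fold of 1.07 over both (95% interval 0.957 to 1.19, adjusted p = 0.932). For abundance 0 of 2 ferritin genes passed, as did 0% of 4800 genes at 24 h (269 at an unadjusted p under 0.05), 0% of 2704 at 48 h (135) and 0.12% of 5857 over both. Larp1, the gene lowered, did not pass at a single time either. Its limma voom fold was 0.394 at 24 h (adjusted p = 0.826) and 0.174 at 48 h (adjusted p = 0.245).

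**Figure D5:**
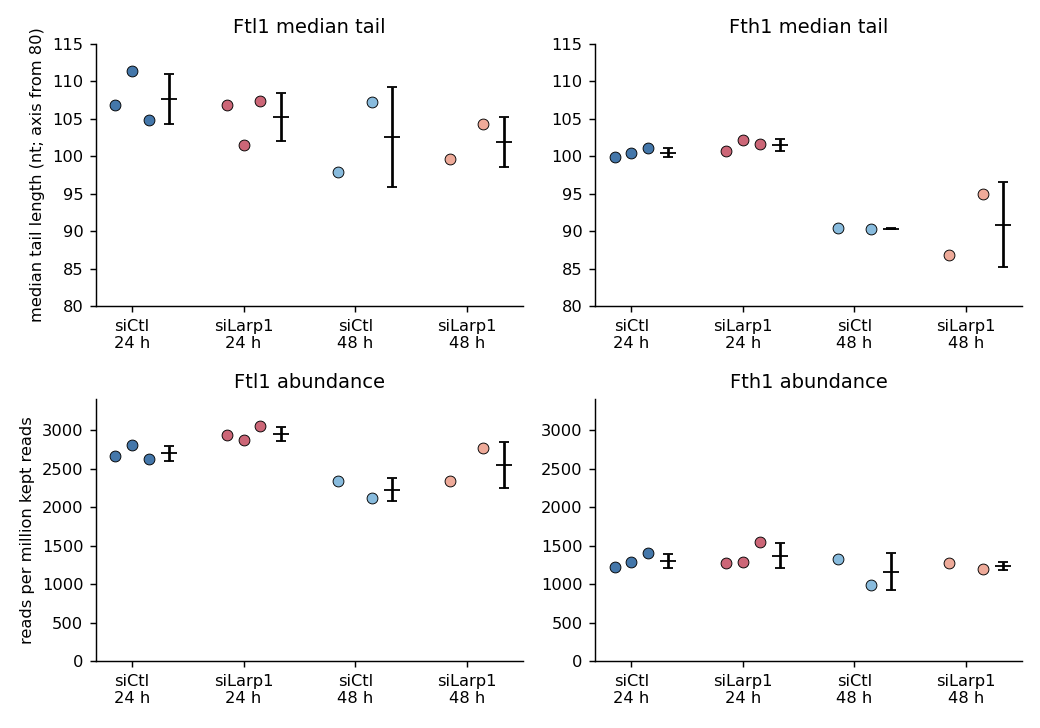
Median tail length in nt (upper row; the axis starts at 80) and abundance in RPM (lower row) of Ftl1 (left) and Fth1 (right) in each of the 10 libraries (points), with mean and SD (bars; n = 3 per group at 24 h and 2 at 48 h). Fth1 medians lie at 99.9 to 102.2 nt at 24 h and at 86.9 to 94.9 nt at 48 h with either siRNA, and each siLarp1 point of Ftl1 abundance lies above the siCtl points of its time.

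Reads assigned to Ftl1 outnumbered those assigned to Fth1 in every library. Ftl1 had 2.08 ± 0.201 times the reads of Fth1 (SD, n = 10, range 1.75 to 2.30), or 1.99 ± 0.193 times per nt of transcript, and was higher in 10 of 10 libraries (exact sign-flip permutation p = 0.00195, adjusted over 5 tests 0.00326). Mapping quality was at least 10 for 39.5% of Ftl1 and 0% of Fth1 reads, so the ratio could not be checked in such reads. Transcripts classed as pseudogenes and a near-identical copy of Ftl1, described below, were not counted. What this leaves out of each gene was not tested. Ftl1 tails were longer. Its median exceeded that of Fth1 by 7.92 ± 4.93 nt (9 of 10 libraries, exact p = 0.00391, adjusted 0.00488), and its share of tails over 150 nt by 4.06 ± 2.39 percentage points (10 of 10, exact p = 0.00195, adjusted 0.00326). The log2 odds of a <30-nt long tail differed by −0.10 ± 1.39 (exact p = 0.855). The siRNA changed none of these differences past the test, with exact stratified permutation p = 0.65 for the <30-nt odds, 0.417 for the median and 0.467 for the log2 RPM ratio.

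Fth1 tails were shorter at 48 h than at 24 h with either siRNA. Fth1 median tails were 99.9 to 102.2 nt in the 6 libraries at 24 h and 86.9 to 94.9 nt in the 4 at 48 h, a difference of −10.4 nt within siRNA arms (exact permutation p = 0.01, the smallest it can give, adjusted over 37 tests 0.0411). Relative to all other genes the Fth1 change was −6.86 nt (exact p = 0.01, adjusted 0.0411) and relative to other genes of its length −5.89 nt (exact p = 0.01, adjusted 0.0411). Relative to TOP reads it was −5.57 nt, which did not pass (exact p = 0.02, adjusted 0.0673). It was the 12th largest fall of the 278 genes with at least 1000 reads, whose median change was −4.62 nt. The 60-nt class of Fth1 gained 11.8 percentage points (exact p = 0.01, adjusted 0.0411), with siCtl means of 37.6% at 24 h and 49.5% at 48 h. In siCtl this class held 41.8% and 46.4% of TOP reads and 38.9% and 42.9% of reads of other genes of 700 to 1200 nt, and the difference from these in this class was not tested. Ftl1 medians differed by −4.18 nt (exact p = 0.14), 155th of the 278, and by −0.632 nt beyond all other genes (exact p = 0.75). The difference between the Ftl1 and the Fth1 change was 6.23 nt (exact p = 0.07, adjusted 0.144). Ftl1 abundance fell by 437.4 RPM at 48 h (exact p = 0.01, adjusted 0.0411), and that of Fth1 changed by −139.6 RPM (exact p = 0.17). The tests by time were added after the values were seen. The 48 h cells had a second transfection and their libraries another pool, so time, transfection and pool cannot be told apart.

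The reads of the ferritin genes map less uniquely than most. Ftl1-ps1, a copy of Ftl1 without introns at chr13:74406409-74407346 (plus strand), shared 906 of 910 aligned bases with the Ftl1 transcript (99.6%), and the alignment begins at base 59, next to the commonest start of Ftl1 reads. It had 910 reads, 17.4% ± 3.55 of the Ftl1 number per library, and their tails were shorter than those of Ftl1 reads by 11.2 ± 6.26 nt (9 of 10 libraries, exact sign-flip p = 0.00391), so the split of reads between gene and copy is uncertain. Mapping quality, a score, was at least 10 for 39.5% of Ftl1 reads, 0% of Fth1 reads (highest score 6) and 71.2% of all reads. Within a library, the median of Ftl1 tails ranged by 1.43 to 14.2 nt between sequencing runs with at least 50 reads (10 libraries), and that of Fth1 by 3.52 to 15.8 nt (5 libraries). The middle values of these ranges, 5.61 and 7.79 nt, were larger than the differences in median between siRNAs.

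By distance between tail-length distributions in siCtl (total variation, 0 for equal), the nearest of the 278 genes to Ftl1 were Ywhae (0.0309), Tmsb10 (0.0363), Rplp2 (0.0375), Rpl38 (0.0394) and Txn1 (0.0402), against a median of 0.120. Nearest to Fth1 were Rpsa (0.0218), Tomm7 (0.0472), Rps12 (0.0497), Hmga1b (0.0539) and Rpl35 (0.0539), against a median of 0.135. Fth1 was only 57th in the order from Ftl1, and Ftl1 25th in the order from Fth1. By distance between the 10 shares of <30-nt long tails in percentage points, Rpl38 (1.11), Rps21 (1.14), Vmn2r97 (1.32), Aldoa (1.40) and D10Wsu102e (1.68) were nearest to Ftl1, and Tmsb10 (0.982), Atp5e (1.17), Rps2-ps10 (1.19), Aldoa (1.64) and Rps21 (1.69) to Fth1.

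Genes around ferritin in iron handling held no call either, in tests that few or no genes passed. Of 35 listed genes 30 had reads, and 19 had enough for the abundance test at 24 h, 11 at 48 h and 19 over both. Of these 0 rose and 0 fell in limma voom, and 1 had an unadjusted p under 0.05 over both (Glrx5, a mitochondrial glutaredoxin for iron-sulfur clusters, log2 −0.33, adjusted p = 0.827). The median log2 difference was 0.21 at 24 h, −0.12 at 48 h and 0.11 over both, against 0.01, 0.02 and 0.04 over all genes tested. For <30-nt long tails 0 of 8 genes passed at 24 h, 0 of 3 at 48 h and 0 of 13 over both, and for median tails 0 of 10, 0 of 3 and 0 of 11. Of the 12 listed targets and regulators of Nrf2, a factor that induces ferritin genes under oxidative stress, 0 of 7 passed for abundance at 24 h, 0 of 4 at 48 h and 0 of 8 over both. Of all genes, 0%, 0% and 0.12% passed for abundance at 24 h, at 48 h and over both. For <30-nt long tails 1.34%, 0.729% and 1.38% passed, and for median tails 0%, 0% and 0.141%. Counts of 0 in these lists are therefore near the share over all genes.

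The transcripts that set ferritin translation and iron uptake had fewer reads than the ferritin mRNAs. Means are given in the order siCtl and siLarp1 at 24 h, then siCtl and siLarp1 at 48 h, in RPM. Tfrc, the transferrin receptor that imports iron, had 92.6, 110.9, 136.0 and 125.8 (222 reads). Ireb2 and Aco1, the iron regulatory proteins, had 39.4, 49.3, 70.2 and 70.2 (103 reads) and 25.4, 26.2, 40.1 and 34.0 (59 reads). These rested on few reads per library, and no direction was shared by both times beyond the test. Pcbp1 and Pcbp2, which deliver iron to ferritin and bind RNA, had 493.6, 402.1, 472.7 and 432.5 (948 reads) and 444.2, 508.6, 505.2 and 455.5 (954 reads). Ncoa4, the receptor for ferritin autophagy, had 25.2, 26.7, 27.3 and 28.8 (54 reads), and Fbxl5, which targets iron regulatory proteins for degradation, 53.3, 52.9, 49.5 and 43.4 (102 reads). The importer Slc11a2 had 45 reads and the exporter Slc40a1 had 6 over all libraries. Trf, Hamp, Ftmt, Epas1 and Cp had 0.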

How the data were processed

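The authors called bases with Guppy, assigned barcodes with Deeplexicon, aligned reads to mouse transcripts (mm10) with Minimap2 (version 2.20 in the submitters' processing notes) and estimated tails with Nanopolish. The deposited table gives for each read and aligned sequence the tail length in nt, the mapping quality as a score and the barcode confidence as a fraction, and no filter on these had been applied. No deposited column is a count. Kept reads, with class mRNA and tag PASS, were therefore tallied once per read and gene, from 112713 to 423365 per library, and scaled to RPM. Counts limit the precision of each share (Wilson intervals at 95%, a limit of 3 counts for a share of 0).

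Shares of <30-nt and 30 to 90-nt tails were tested with a quasi-binomial model in genes with at least 100 reads, with dispersions moderated by limma 3.58.1 (R 4.3.3). Median tails were tested with limma in genes with at least 100 reads and 5 per library, weighted by reads, and abundance with limma voom in genes with at least 30 reads. P-values were adjusted by Benjamini-Hochberg over all genes fitted (threshold 0.05). Fits over both time points had time as a term. The scripts were tested on simulated data. Single values were compared by exact two-sided permutation of libraries, stratified by time (120 arrangements). The libraries of a group are taken as replicates, and p-values measure the spread between them.

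The members and lists were chosen with earlier results of these data known. Named were Ftl1, Fth1, their 5 nearest genes by tail profile and by <30-nt share among genes with at least 1000 reads, and fixed members of the iron list. A further marker list is not reported here. The TOP list held ribosomal protein genes and other known TOP genes, written from general knowledge. Over 278 genes, deviations of log2 RPM from group means were correlated between same-numbered siCtl and siLarp1 libraries. The r was 0.183, 0.563 and 0.509 at 24 h and 0.211 at 48 h. With 2 libraries per group, deviations at 48 h mirror each other, so r there could only be 0.211 or −0.211. On this evidence the numbers were taken as a pairing for the count of same-numbered pairs and for the replicate block only. The other tests of siRNA took the libraries as unpaired, and nothing else states a pairing. Alternatives were other quality tags, barcode confidence, mapping quality, class limits, filters, scalings, models, transcripts, the replicate block and leaving out libraries. Sequences, coordinates and lengths came from GENCODE M21. Python 3.11.15, pandas 2.3.3, numpy 2.4.6, scipy 1.17.1, biopython 1.88 and matplotlib 3.10.9 were used.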

Additional observations from a re-analysis of the deposited data

Results flagged for a closer look

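The 90th percentile of Fth1 tails moved in opposite directions at both times. It was higher in siLarp1 by 8.06 nt at 24 h, from 159.7 to 167.8 nt, and changed by −11.6 nt at 48 h, from 155.7 to 144.1 nt. The difference between the effects was −19.6 nt (exact permutation within time points, p = 0.0167, the smallest it can give), with a Benjamini-Hochberg value of 0.3 over the 18 ferritin measures tested in this way, so it does not pass the threshold after adjustment. The measure was flagged because the siRNA groups did not overlap at either time, in opposite directions. Any measure chosen by that rule has this smallest exact p, so the p adds nothing to the choice.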

How the results depend on the processing

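Of 495 values under 30 alternatives, 164 that left out a library and 298 others kept direction and side of the threshold, 6 passed it in the same direction, and 16 and 11 changed sign. At 24 h the Ftl1 difference in <30-nt long tails passed with a barcode confidence of at least 0.9 (0.833 points, limma-moderated adjusted p = 0.0393), in the transcript with most reads (0.730, 0.0479), with limma on log2 odds (0.678, 0.0453) and with a filter of 30 reads (0.678, 0.0464). Over both times it passed with limma on log2 odds (0.554, 0.0436) and with the replicate block (0.554, 0.0429), and the block changed no other ferritin call. The log2 odds add 0.5 to each count, which leans upward in shallow libraries. At 24 h every siLarp1 library was shallower than every siCtl library, and how far the lean bears on the log2 odds passes was not tested. The other passes came from the quasi-binomial model, which adds nothing to the counts. The block called 521 of 1867 genes at 24 h, 529 of 2539 over both and 334 for the interaction, against 25, 35 and 0. Holding its dispersion at 1 or more, chosen after seeing the data, left 0. Values that changed sign were the Fth1 share of <30-nt tails at 24 h with all quality tags (0.079) and limits of 35 and 100 nt (0.0422), the Ftl1 median at 24 h with mapping quality of at least 10 (0.012 nt), the Ftl1 60-nt share at 48 h with barcode confidence (−2.86) and limits of 25 and 80 nt (−0.286) and over both with barcode confidence (−0.408), the Fth1 60-nt share at 48 h in reads that held the iron-responsive element (2.16), and the 48 h medians with barcode confidence (Ftl1 0.0103 nt, Fth1 3.11 nt), in the main transcript (Fth1 0.338 nt) and with the block (Fth1 0.399 nt). Leaving out each library in turn gave ranges across 0 at 48 h for the Ftl1 <30-nt share (−0.0799 to 0.939), the 60-nt shares (Ftl1 −3.86 to 4.34, Fth1 −6.77 to 3.39), the medians (Ftl1 −5.51 to 3.93, Fth1 −3.45 to 4.60 nt) and Fth1 abundance (log2 −0.102 to 0.325). It did so at 24 h for Fth1 abundance (log2 −0.0324 to 0.132), over both for the 60-nt shares (Ftl1 −0.916 to 3.18, Fth1 −4.06 to 1.02) and the Fth1 median (−0.0937 to 1.68 nt), and for the Ftl1 <30-nt difference between times (−0.758 to 0.261). The Ftl1 <30-nt difference at 24 h ranged from 0.372, without siLarp1 library 22, to 0.843 points, with adjusted p from 0.0737 to 0.622. Counts of genes called over all alternatives ran from 0 to 521 for <30-nt tails at 24 h, 0 to 40 at 48 h, 0 to 529 over both and 0 to 20 for abundance at 24 h. The sign changes on leaving out a library came without siCtl library 25 or 24 or siLarp1 library 24 or 25 at 48 h, or siLarp1 library 22 at 24 h. The causes were not tested. Fth1 has no value at a mapping quality of at least 10. Depth limits <30-nt shares of Fth1, with 145 to 594 reads per library.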
